A study of Mus musculus with 10 samples.

Results

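Messenger RNA of the ATF4 arm of the integrated stress response was measured in livers of KL mice, an inducible model of lung cancer, with and without cachexia. The members are 10 genes of this pathway, taken by symbol from the 43629 genes of the count table: Atf4, Atf5, Ddit3, Trib3, Ppp1r15a, Chac1, Sesn2, Asns, Phgdh and Psat1. By edgeR, DESeq2 and limma-voom no member differed past the threshold between cachectic and non-cachectic livers. Trib3 was below every non-cachectic liver in 4 of the 5 cachectic livers, and Ppp1r15a and Sesn2 were above in 4 of 5. The remaining cachectic liver was above 4 of the 5 non-cachectic livers for Trib3, inside their range for Ppp1r15a and the lowest of the 10 for Sesn2. How many of all tested genes separate in part like this was not counted.

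All mice were males of the same KL genotype, which includes Lkb1 flox/flox, on an FVB background, and were 12 to 20 weeks old when tumours were induced by intranasal adenovirus carrying CMV-driven Cre. Both groups therefore bore lung tumours, whose size was not measured, and no tumour-free mice were compared. Non-cachectic mice (NCACS, n = 5, mice 11 to 15) had a labelled weight loss of 3 to 14%, and for cachectic mice (CACS, n = 5, mice 16 to 20) it was 29 to 33%, with 15% as the boundary. The labels give no batch. Each liver was 1 mouse and 1 library, and total counts ran from 31945328 to 38306888 in NCACS livers and from 31459179 to 40746178 in CACS livers. Hepatocyte markers were abundant in every liver, with a summed level of 62642.5 to 111931 TMM-normalised CPM, that is counts scaled to a common library size, over 6 genes in NCACS livers and 106273 to 129385 CPM in CACS livers. The markers of Kupffer cells, the resident macrophages, summed to 144 to 228 CPM in NCACS livers against 79.8 to 163 CPM under CACS, and 1 of 5, Cd5l, fell (log2 fold change -0.90, adjusted p = 0.0374 from edgeR). Hnf4a, a hepatocyte transcription factor and 1 of the 6 hepatocyte markers, rose (0.50, adjusted p = 0.0435 from edgeR), and so did Sftpa1, 1 of 3 tested lung epithelial markers (1.27, adjusted p = 0.0323 from edgeR), whose CACS mean was 3.42 CPM. Together the lung markers summed to 1.63 to 5.75 CPM in NCACS and 1.83 to 8.72 CPM in CACS livers. Of those tested, 2 had a positive and 1 a negative log2 fold change. The calls of Cd5l, Hnf4a and Sftpa1 lay near the threshold. Cd5l was lost without NCACS mouse 11, 12, 13 or 15 or CACS mouse 16, 17, 18 or 20 (adjusted p up to 0.0862 in edgeR), Hnf4a without any single mouse but CACS mouse 18 (up to 0.0974), and Sftpa1 without any NCACS mouse or CACS mouse 16 or 20 (up to 0.0681). Hnf4a was also lost without the low-count filter (0.0763) and Sftpa1 with limma-voom (0.0584). Neutrophil markers summed to 1.36 to 11.8 CPM in NCACS and 1.04 to 2.57 CPM in CACS livers, lymphocyte markers to 2.23 to 4.40 and 1.13 to 2.67 CPM, and none of the 4 lists for these cells, endothelium or stellate cells held a call in edgeR, while DESeq2 called 2 neutrophil markers, S100a8 and S100a9, as lower. Whether these shifts contributed to any value given here was not tested, and in whole liver fewer cells of a type and less RNA per cell cannot be told apart.

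The integrated stress response begins when kinases that sense amino acid shortage, misfolded protein, viral RNA or haem deficiency phosphorylate the translation factor eIF2alpha. General protein synthesis then slows, while the ATF4 transcript, which carries upstream open reading frames, is translated more, so that ATF4 protein can rise with little change in its mRNA. ATF4 binds DNA together with C/EBP-family partners and activates genes for amino acid synthesis and uptake, for redox balance and for its own restraint. Of the pathway, RNA sequencing reads the transcripts of ATF4 and its targets, not the phosphorylation of eIF2alpha or the amount of ATF4 protein.

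The DNA letters by which ATF4 and its C/EBP partners are known to recognise targets, the C/EBP-ATF response element, are shown because they mark which members carry that core near their start. The core TGATGNAA was searched on both strands of the window from 250 bases before to 50 bases after each RefSeq transcript start (GRCm38.p6, a C57BL/6J reference and not the FVB genome of these mice). All 10 members matched a window, and 3 of them held the core, against 4.51% of the 27025 genes with such a window. The 3 members were Chac1, Trib3 and Asns. Other genes of the pathway lists held it too, among them Slc7a11, Herpud1 and Got1, and Atf3 and Fgf21 are shown because their values in every liver are given later. Each line gives 28 bases on the strand of the gene, with the core or its reverse complement in capitals:
Chac1, chr2:119351039-119351066, forward strand: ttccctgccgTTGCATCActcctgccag
Trib3, chr2:152344029-152344056, reverse strand: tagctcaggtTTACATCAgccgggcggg
Asns, chr6:7693215-7693242, reverse strand: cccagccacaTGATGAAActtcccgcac
Atf3, chr1:191183426-191183453, reverse strand: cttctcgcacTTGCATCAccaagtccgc
Fgf21, chr7:45615612-45615639, reverse strand: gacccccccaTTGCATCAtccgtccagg
The core lay from -193 to -186 in Chac1 and from -23 to -16 in Asns, counted from the RefSeq start. In Trib3 it lay from 15 to 22 bases into the RefSeq transcript. In Atf3 it ran from -110 to -103, and in Fgf21 from -139 to -132. The GENCODE gene starts, used for the gene positions below, differ from these. By them the Trib3 core lies 7 bases before the gene, and the cores of Asns and Atf3 lie inside it. The log2 fold changes of Chac1, Trib3 and Asns between groups, none past the threshold, were 1.23, -0.73 and 0.69, and a match of letters is a description and not evidence of binding.

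Levels can be compared between genes only per transcript length, here as RPKM, the CPM divided by the exon length in kilobases, over the 10 livers. The regulators stood far above the biosynthetic enzymes. Atf5 had the highest level, at 108 ± 32.9 RPKM (SD, n = 10), and Atf4 followed at 46.2 ± 7.17 RPKM, with Atf5 above Atf4 in 10 of 10 livers. Atf4 in turn exceeded Ddit3 (5.86 ± 1.33 RPKM) in every liver. The next 5 genes formed a gradual series in which neighbours changed places between livers. Ddit3 was above Ppp1r15a (4.53 ± 1.01 RPKM) in 8 livers and Ppp1r15a above Trib3 (2.85 ± 1.51 RPKM) in 8. Trib3 was above Chac1 (2.50 ± 2.23 RPKM) in 6, and Chac1 above Sesn2 (2.34 ± 0.464 RPKM) in 4, so Trib3, Chac1 and Sesn2 could not be ordered beyond their spread. The amino acid enzymes came last. Sesn2 exceeded Asns (0.449 ± 0.404 RPKM) in all 10 livers, Asns exceeded Psat1 (0.189 ± 0.0947 RPKM) in 7, and Psat1 exceeded Phgdh (0.0830 ± 0.0524 RPKM) in 9.

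**Figure D1:**
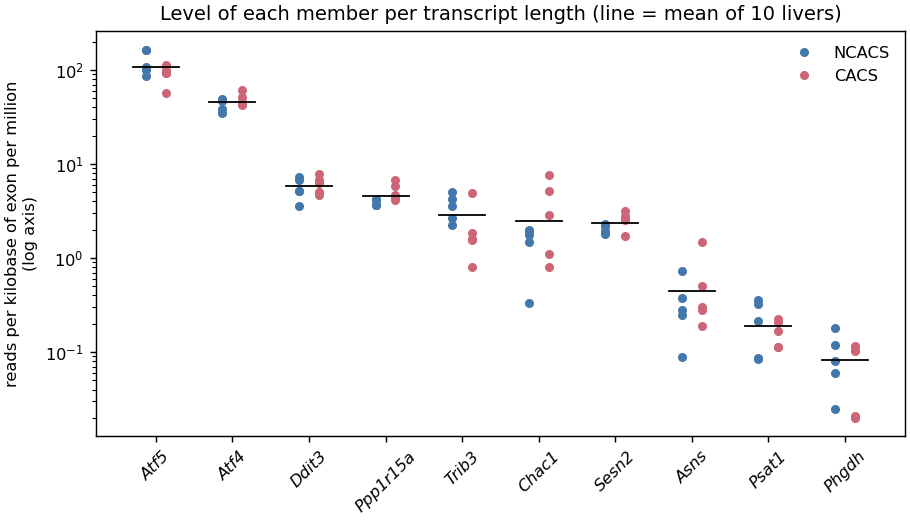
Level of each member in RPKM on a log axis, with 1 point per liver (blue NCACS, red CACS) and a line at the mean of the 10 livers. Atf5 and Atf4 stand apart at the top, and Asns, Psat1 and Phgdh at the bottom.

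The comparison of CACS with NCACS livers asks whether ATF4 pathway transcripts differ between mice that developed cachexia and mice that did not. Low counts removed 1 of the 10 members, and edgeR's quasi-likelihood method tested the other 9, with p-values adjusted by Benjamini-Hochberg over 14143 genes. None of the 9 had an adjusted p-value under 0.05, whereas 3.8% of all tested genes did (1.89% higher and 1.92% lower in CACS livers). By unadjusted p-values 1 member, Ppp1r15a, was under 0.05, against 21.6% of all tested genes. DESeq2 called 0 of 10 members, against 8.87% of genes. Its unadjusted p-value was under 0.05 for 1 member, and for 3530 of the 24746 genes it fitted. By limma-voom 0 of 9 members were called, against 509 of 14143 genes. Unadjusted, 2 of the 9 were under 0.05, against 3025 of 14143. The log2 fold change, CACS minus NCACS, was positive for 6 members and negative for 3, with a median of 0.17 beside -0.0053 over all tested genes. In no member did the 2 groups separate fully, as they did in 7.07% of tested genes.

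**Figure D2:**
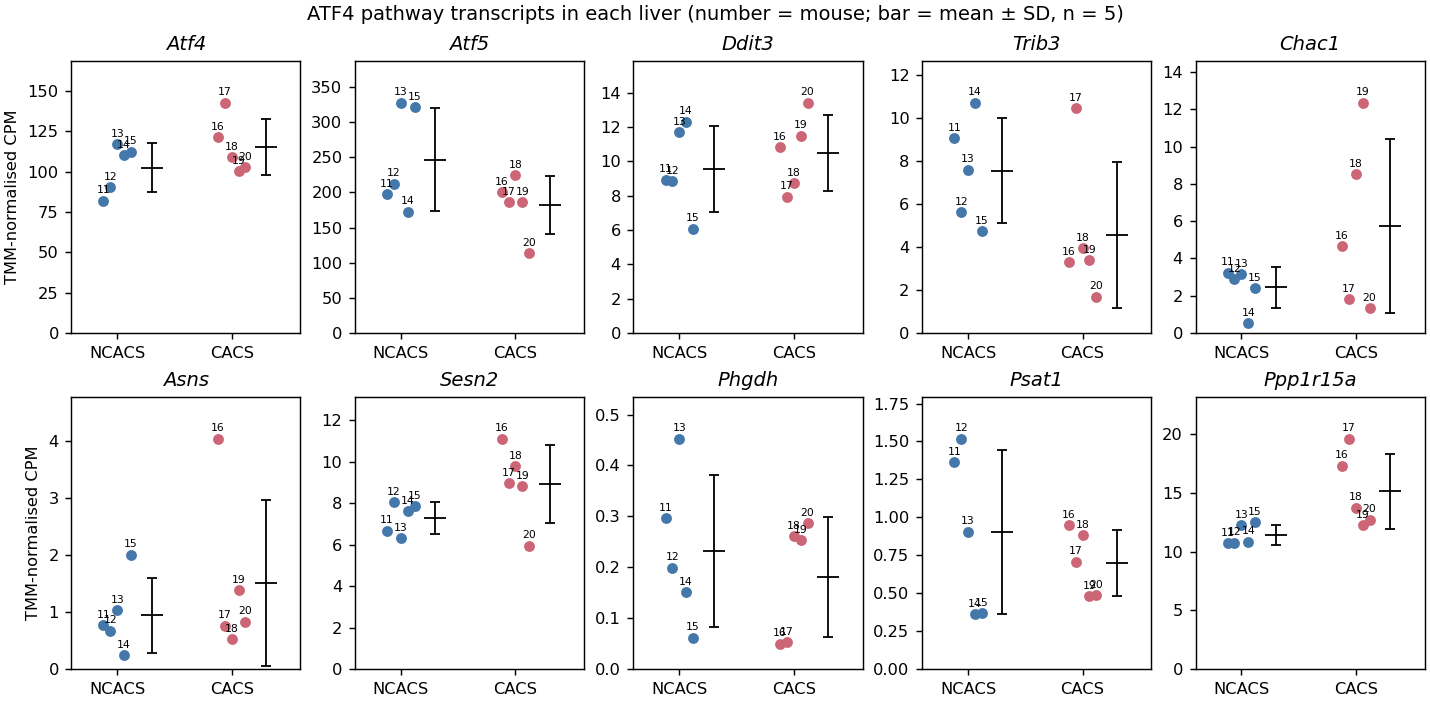
TMM-normalised CPM of the 10 members, with 1 point per liver labelled by mouse number and the mean ± SD of 5 livers beside each group. The groups overlap in every panel, CACS mouse 17 is far above the other CACS mice for Trib3, and CACS mouse 16 for Asns.

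The transcription factors come first. Atf4 itself (ENSMUSG00000042406, chromosome 15, 80255184 to 80257541, forward strand) had 82.0, 90.3, 117, 110.1 and 112 CPM in NCACS mice 11 to 15. In CACS mice 16 to 20 it had 122, 143, 109, 100.4 and 103 CPM. Only mice 16 and 17 lay above the NCACS range, and the other 3 CACS livers lay inside it. The means were 102 ± 15.3 and 115 ± 17.4 CPM (SD, n = 5 each), and the log2 difference was 0.17 (95% interval -0.11 to 0.46, adjusted p = 0.478 from edgeR). Atf4 had 2764 to 5446 counts per liver.

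Atf5 (ENSMUSG00000038539, chromosome 7, 44812256 to 44816658, reverse strand) is a relative of ATF4 that is also controlled at translation and is known for its part in the mitochondrial stress response. It had 198, 213, 328, 173 and 322 CPM in NCACS mice 11 to 15 and 201, 186, 225, 186 and 113 CPM in CACS mice 16 to 20. NCACS mice 13 and 15 were the highest of the 10 livers, CACS mouse 20 was the lowest, and the other 7 livers lay close together. The log2 fold change was -0.44 (95% interval -0.92 to 0.043, adjusted p = 0.274 from edgeR), the opposite sign to Atf4. Atf5 overlaps the antisense gene Il4i1, which had at most 70 counts in a liver against at least 3949 for Atf5.

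Ddit3 (ENSMUSG00000025408, chromosome 10, 127290774 to 127296288, forward strand) encodes CHOP, a C/EBP-family factor associated with cell death under lasting stress. Its levels were 8.93, 8.86, 11.7, 12.3 and 6.08 CPM in NCACS mice 11 to 15 and 10.8, 7.95, 8.71, 11.5 and 13.4 CPM in CACS mice 16 to 20. The groups covered nearly the same range, with the lowest liver NCACS mouse 15 and the highest CACS mouse 20. On the log2 scale the difference was 0.13 (95% interval -0.31 to 0.57, adjusted p = 0.756 from edgeR). Ddit3 overlaps Mars on the other strand, which reached 2485 counts in a liver while Ddit3 had at most 469, and the strand setting of the counting is not given in the sources used here, so part of the Ddit3 count could belong to Mars.

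Of the genes that restrain the response, Trib3 (ENSMUSG00000032715, chromosome 2, 152337422 to 152344032, reverse strand) encodes a pseudokinase that binds ATF4 and the insulin-signalling kinase AKT. NCACS mice 11 to 15 had 9.08, 5.63, 7.60, 10.7 and 4.72 CPM. CACS mice 16, 18, 19 and 20 had 3.30, 3.95, 3.38 and 1.69 CPM, and CACS mouse 17 had 10.5 CPM. Thus 4 of 5 CACS livers lay below every NCACS liver, and the other was higher than 4 of the 5 NCACS livers. The means were 7.55 ± 2.45 and 4.56 ± 3.41 CPM (SD, n = 5 each), and the log2 fold change of -0.73 did not pass the threshold (95% interval -1.63 to 0.18, adjusted p = 0.332 from edgeR). Without CACS mouse 17 the log2 fold change was -1.29 with an adjusted p from edgeR of 0.0428, while no member was called when any of the other 9 mice was removed. Of 14269 genes, 3.64% were called without mouse 17, 1.91% as lower.

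Ppp1r15a (ENSMUSG00000040435, chromosome 7, 45522916 to 45526268, reverse strand) encodes GADD34, the inducible phosphatase subunit that reverses eIF2alpha phosphorylation and so ends the response. It had 10.7, 10.8, 12.3, 10.9 and 12.5 CPM in NCACS mice 11 to 15 and 17.3, 19.7, 13.8, 12.3 and 12.7 CPM in CACS mice 16 to 20. The NCACS livers were nearly uniform (11.4 ± 0.882 CPM, SD, n = 5), and 4 of 5 CACS livers were above all of them (15.2 ± 3.20 CPM, SD, n = 5). Mouse 19 overlapped with the NCACS range, and mice 16 and 17, which also had the highest Atf4, had the highest Ppp1r15a. Its log2 fold change was 0.41 (95% interval 0.11 to 0.71, adjusted p = 0.119 from edgeR), with the smallest p-value of the members in edgeR. The adjusted p-value was 0.0888 with DESeq2 and stayed between 0.105 and 0.204 in edgeR whichever of the 10 mice was removed. Its constitutive counterpart Ppp1r15b, from the list of eIF2 regulators, had 108 CPM in NCACS livers against 133 CPM under CACS without overlap of the groups (log2 fold change 0.31, adjusted p = 0.0645 from edgeR), and was named after its values were seen.

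Chac1 and Sesn2 act on glutathione and on growth signalling. Chac1 (ENSMUSG00000027313, chromosome 2, 119351229 to 119354381, forward strand), an enzyme that degrades glutathione, had 3.23, 2.89, 3.14, 0.542 and 2.41 CPM in NCACS mice 11 to 15. In CACS mice 16 to 20 it had 4.65, 1.81, 8.52, 12.4 and 1.32 CPM. Mice 16, 18 and 19 exceeded every NCACS liver, whereas mice 17 and 20 were lower than 4 of the 5. The spread between CACS livers was correspondingly wide (5.73 ± 4.69 CPM against 2.44 ± 1.11 CPM, SD, n = 5 each), and the 2.35-fold difference of the means did not pass the threshold (log2 fold change 1.23, 95% interval -0.091 to 2.55, adjusted p = 0.266 from edgeR). Without CACS mouse 19 the log2 fold change was 0.73, and with limma-voom on all livers it was 0.95.

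Sesn2 (ENSMUSG00000028893, chromosome 4, 132492032 to 132510501, reverse strand) encodes a leucine sensor that restrains the growth kinase complex mTORC1. It had 6.68, 8.04, 6.31, 7.62 and 7.87 CPM in NCACS mice 11 to 15 and 11.1, 8.97, 9.79, 8.82 and 5.96 CPM in CACS mice 16 to 20. As for Ppp1r15a, 4 of 5 CACS livers were above every NCACS liver, but here the remaining CACS liver, mouse 20, was the lowest of the 10. The difference on the log2 scale was 0.29 (95% interval -0.056 to 0.64, adjusted p = 0.313 from edgeR).

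The amino acid synthesis members were sparse in these livers. Asns (ENSMUSG00000029752, chromosome 6, 7675169 to 7693254, reverse strand), which makes asparagine and is a textbook ATF4 target, had 0.771, 0.672, 1.03, 0.241 and 2.01 CPM in NCACS mice 11 to 15. It had 4.05, 0.761, 0.522, 1.38 and 0.830 CPM in CACS mice 16 to 20, or 8 to 162 counts per liver over all mice. CACS mouse 16 was high and the other 4 CACS livers lay within the NCACS range. The log2 fold change of 0.69 (95% interval -0.65 to 2.02, adjusted p = 0.552 from edgeR) rested on that liver, since without CACS mouse 16 it was -0.10 (adjusted p = 0.934 from edgeR).

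Phgdh and Psat1 carry out consecutive steps of serine synthesis from a glycolytic intermediate. Psat1 (ENSMUSG00000024640, chromosome 19, 15904678 to 15947337, reverse strand) had 1.36, 1.52, 0.906, 0.361 and 0.371 CPM in NCACS mice 11 to 15. It had 0.949, 0.708, 0.881, 0.479 and 0.487 CPM in CACS mice 16 to 20. The CACS values all lay inside the NCACS range (log2 fold change -0.37, 95% interval -1.30 to 0.55, adjusted p = 0.655 from edgeR), and without NCACS mouse 12 the difference was -0.099. Phgdh (ENSMUSG00000053398, chromosome 3, 98313170 to 98339990, reverse strand), the first enzyme of the pathway, had 2 to 14 counts per liver and was left out by the filter on low counts. Its levels were 0.297, 0.199, 0.453, 0.151 and 0.0618 CPM in NCACS mice 11 to 15 and 0.05, 0.0525, 0.261, 0.254 and 0.286 CPM in CACS mice 16 to 20. CACS mice 16 and 17, with 2 counts each, lay below every NCACS liver, and the other CACS livers lay inside the NCACS range. In an edgeR fit without the filter the log2 fold change was -0.37 (adjusted p = 0.783).

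**Figure D3:**
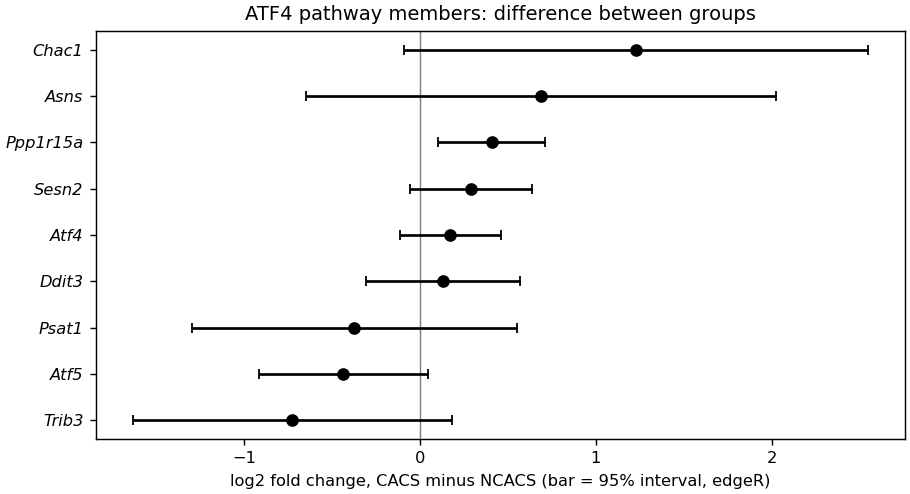
Log2 fold change of the 9 tested members, CACS minus NCACS, with 95% intervals from edgeR's quasi-likelihood test; Phgdh was not tested. The interval of Ppp1r15a lies above 0 before adjustment, and the other 8 include 0.

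The intervals differ widely in what they leave possible. For Atf4, Ppp1r15a, Ddit3 and Sesn2 the upper bounds were 0.46, 0.71, 0.57 and 0.64 on the log2 scale, all under 1, which is a 2-fold difference. For Chac1, Asns, Trib3 and Psat1 the intervals reach 2.55, 2.02, -1.63 and -1.30, so differences of more than 2-fold lie inside them, and for Atf5 the interval reaches -0.92.

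The members did not vary together from liver to liver as one block. After each group's mean was subtracted, Pearson's r of log2 CPM was above 0 for 23 of 36 pairs of tested members over the 10 livers, with a median of 0.12 and a range from -0.52 to 0.82. These coefficients are descriptions, with 8 residual degrees of freedom, and every pair shares its libraries and their depth. The highest was that of Atf4 with Ppp1r15a (0.82), followed by Atf5 with Chac1 (0.62) and Trib3 with Ppp1r15a (0.55). Ddit3 had a negative coefficient with all 8 other tested members, from -0.52 with Atf5 to -0.081 with Psat1. The liver with the highest level also changed from member to member. CACS mouse 16 was highest for Asns and Sesn2, mouse 17 for Atf4 and Ppp1r15a, mouse 19 for Chac1 and mouse 20 for Ddit3. NCACS mouse 13 was highest for Atf5 and Phgdh, mouse 14 for Trib3 and mouse 12 for Psat1.

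**Figure D4:**
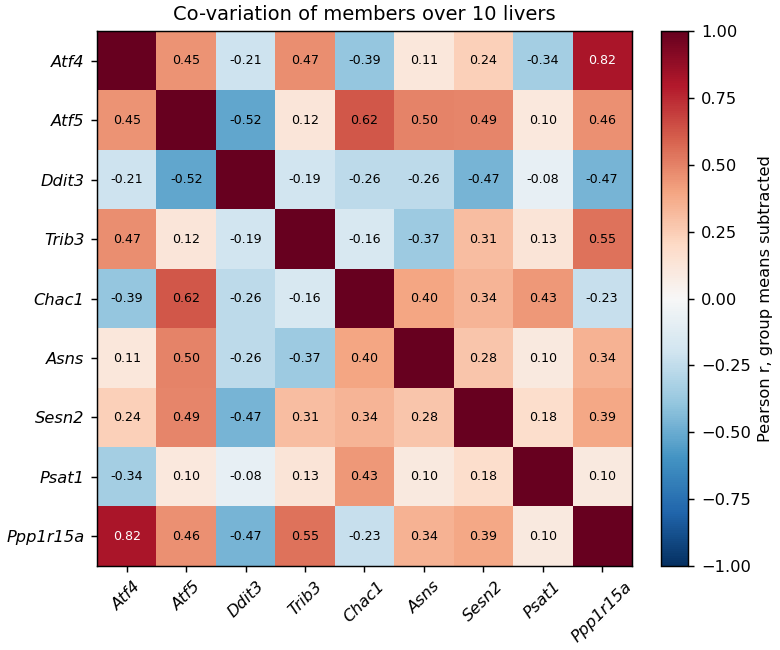
Pearson's r between tested members over 10 livers after subtraction of group means, from blue (-1) to red (1). Atf4 with Ppp1r15a is the darkest red cell, and the Ddit3 row is blue apart from the diagonal.

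Among 9229 other genes whose mean reached 5 CPM, the gene with the largest absolute within-group r was named for each member, again over the 10 livers and as a description. The largest of so many coefficients with 8 residual degrees of freedom is high by selection alone. The genes named here are therefore not evidence of shared regulation. Ppp1r15a was most like Dusp1, an immediate-early phosphatase of MAP kinases (r = 0.96), which rose in CACS livers (11.9 ± 3.73 against 44.1 ± 30.5 CPM, log2 fold change 1.89, adjusted p = 0.0374 from edgeR). That call was lost with limma-voom (0.0633), with the robust fit (0.0572) and without any NCACS mouse or CACS mouse 16, 17 or 20 (0.0524 to 0.0822 in edgeR). Trib3 was most like Svil (0.95), Atf5 most like Apobec1 (0.96), Chac1 most like Trappc12 (0.95) and Asns most like Smcr8 (0.92). The largest coefficients of the other members were negative, -0.95 for Atf4 with Map2k3, -0.94 for Ddit3 with Galnt1, -0.98 for Sesn2 with Tmx2 and -0.98 for Psat1 with Gm5834. None of these 8 genes passed the threshold between groups, with adjusted p-values from 0.118 to 0.976 in edgeR. Nearest to the mean of the scaled members were Zbtb21 (0.92), C9orf72 (0.91), Naif1 (0.87), Enpp3 (0.86) and Ermp1 (0.86), none past the threshold.

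Upstream of ATF4, 21 genes for eIF2 kinases, eIF2 and its exchange factor were all tested. edgeR and limma-voom called 0 of 21. DESeq2 called 2 (Eif2b3 and Ppp1r15b, both higher and named after their values were seen), against 8.87% of all genes. In edgeR 4 had an unadjusted p-value under 0.05, against 21.6% of all genes. None of the 4 kinase transcripts passed the threshold. Eif2ak4 (GCN2, the amino acid sensor) had 14.2 ± 1.75 CPM in NCACS livers against 14.2 ± 1.42 CPM under CACS, with a 95% interval of the log2 difference from -0.25 to 0.23. Eif2ak1 (HRI, the haem sensor) had 42.8 ± 3.82 and 43.2 ± 3.84 CPM (interval -0.19 to 0.21). Eif2ak3 (PERK, the kinase of the endoplasmic reticulum) had 16.8 ± 1.30 and 18.2 ± 2.10 CPM (-0.094 to 0.34), and Eif2ak2 (PKR, the sensor of double-stranded RNA) had 22.4 ± 7.10 and 17.04 ± 2.23 CPM (-0.81 to 0.018, all SD, n = 5 each). Their adjusted p-values from edgeR ran from 0.252 to 0.977, and transcript level does not report kinase activity.

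Over the lists of other pathway genes, edgeR called 6 of 161 (3.73%), close to the 3.8% over all genes, and limma-voom called 5 of 161. DESeq2 called 24 of the 166 genes it fitted, a larger share than its 8.87% over all genes. Some of the 166 had no adjusted p-value, whereas the 8.87% counts only genes with one. Among list genes with one, the share was therefore higher still. The tools thus differed, and the difference in shares was not tested. Genes named below only for a DESeq2 call were named after their values were seen. Of 20 partner and feedback factors, edgeR called 2 higher and 0 lower, with 7 unadjusted p-values under 0.05 (21.6% over all genes). DESeq2 called 5, all higher (Atf3, Cebpd, Cebpg, Jun and Trib1), and limma-voom called Cebpg alone. Cebpg, a C/EBP protein that pairs with ATF4, had 47.9 to 55.3 CPM in NCACS livers against 61.2 to 85.5 CPM under CACS, without overlap (log2 fold change 0.49, adjusted p = 0.0273 from edgeR). Jun, a component of the AP-1 transcription factor, had 4.33 to 7.31 CPM in NCACS livers against 7.08 to 21.1 CPM under CACS, with 1 CACS liver inside the NCACS range (log2 fold change 1.22, adjusted p = 0.0374 from edgeR). Both calls lay near the threshold. Cebpg was lost without any one of NCACS mice 11, 12, 13 or 14 or CACS mice 16 or 19, with adjusted p-values of 0.0526 to 0.0604 from edgeR. Jun was lost with limma-voom (0.0529) and without NCACS mouse 11, 12, 14 or 15 or CACS mouse 16 or 19 (0.0570 to 0.0838 from edgeR). Atf3, a stress-induced factor and direct ATF4 target, had 1.04, 1.57, 1.78, 0.813 and 1.33 CPM in NCACS mice 11 to 15 and 2.25, 5.46, 1.79, 3.32 and 2.405 CPM in CACS mice 16 to 20. Every CACS liver lay above every NCACS liver, mouse 18 only barely, yet the log2 difference of 1.22 did not pass (edgeR, adjusted p = 0.0580). It passed with DESeq2 (0.00617) and in edgeR without CACS mouse 18 (0.0497). For Cebpb the difference was 0.62 on the log2 scale and did not pass (edgeR, adjusted p = 0.149).

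**Figure D5:**
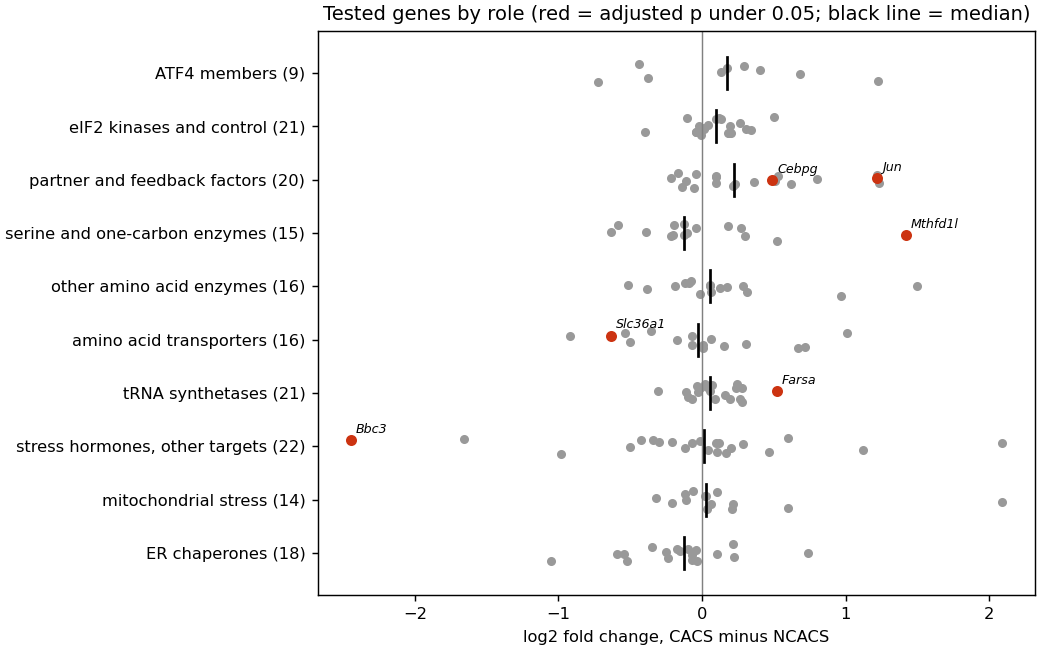
Log2 fold change, CACS minus NCACS, of the tested genes of each list, with the number tested in brackets, the median as a black line and red, named points for adjusted p-values under 0.05. The 9 members hold no red point, and 6 genes of the other lists do.

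Enzymes that make or use serine and one-carbon units had 1 higher and 0 lower calls among 15 in edgeR, with 3 unadjusted p-values under 0.05 (21.6% over all genes). DESeq2 called 1 higher and 1 lower (Mthfd1l and Amt). Mthfd1l, a mitochondrial formate-producing enzyme, had 0.744 to 2.31 CPM in NCACS livers against 3.30 to 4.38 CPM under CACS (log2 fold change 1.42, adjusted p = 0.0255 from edgeR). The call was lost without NCACS mouse 14 or CACS mouse 19 or 20 (adjusted p from 0.0524 to 0.0555 in edgeR). The ATF4 targets Mthfd2, Shmt2 and Psph had log2 fold changes of -0.22, -0.13 and -0.040, with adjusted p-values of 0.804, 0.457 and 0.897 from edgeR.

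Among 16 tested amino acid transporters, edgeR and limma-voom called 1, as lower, and DESeq2 called 2 of 17, Slc36a1 lower and Slc38a2 higher. Slc36a1, a lysosomal and plasma membrane proton-coupled carrier of small neutral amino acids, had 55.5 to 71.2 CPM in NCACS livers against 35.2 to 46.7 CPM under CACS (log2 fold change -0.64, adjusted p = 0.0140 from edgeR), and stayed past the threshold under all 18 alternatives. Slc7a11, the cystine carrier that ATF4 induces, was too low to test, with 2 to 24 counts per liver. Of 16 tested other amino acid enzymes, edgeR and limma-voom called 0 and DESeq2 called 2 (Asl and Got1, both higher and likewise named after their values were seen), with 2 unadjusted p-values under 0.05 in edgeR. Of 21 genes of tRNA charging and export, edgeR and limma-voom called 1, as higher, with 7 unadjusted p-values under 0.05 in edgeR. DESeq2 called 3, all higher (Farsa, Hars and Iars). Over all genes, DESeq2 called 8.87%, and 21.6% had an unadjusted p-value under 0.05 in edgeR. Farsa, a subunit of the phenylalanine enzyme, had 20.2 ± 2.65 CPM in NCACS livers against 29.0 ± 4.64 CPM under CACS (5 livers each, SD; log2 fold change 0.52, adjusted p = 0.0454 from edgeR). That call was lost with RLE factors (0.0510), upper-quartile factors (0.0506), raw totals (0.0512) and no filter (0.0554), and without NCACS mouse 11, 12, 14 or 15 or CACS mouse 16, 17, 19 or 20 (0.0542 to 0.0991 in edgeR).

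Of 22 tested stress hormones and other targets, edgeR and limma-voom called 1, as lower, with 8 unadjusted p-values under 0.05 in edgeR (21.6% over all genes). DESeq2 called 5 of 23 (8.87% over all genes), 1 higher and 4 lower (Atg5, Bbc3, Ndrg1, Ppp1r3c and Vegfa). Bbc3, which encodes the cell-death protein PUMA, had 5.31, 4.51, 12.2, 3.28 and 6.67 CPM in NCACS mice 11 to 15 and 2.15, 0.997, 0.946, 0.761 and 0.945 CPM in CACS mice 16 to 20. It was lower in every CACS liver than in any NCACS liver (log2 fold change -2.45, 95% interval -3.30 to -1.60, adjusted p = 0.0120 from edgeR) and passed under all 18 alternatives. Fgf21, a liver hormone of fasting and stress, had 0.831, 1.34, 0.453, 0.512 and 0.741 CPM in NCACS mice 11 to 15 and 2.12, 0.734, 12.4, 1.44 and 0.115 CPM in CACS mice 16 to 20. CACS mouse 18 set its mean, and CACS mouse 20 was the lowest of all livers. The log2 difference of 2.09 (edgeR, adjusted p = 0.202) was 0.50 without CACS mouse 18 and 0.75 with limma-voom. Gdf15, a circulating stress signal that reduces appetite, had 1.71 ± 1.07 CPM in NCACS livers against 2.58 ± 1.41 CPM under CACS (5 livers each, SD; log2 fold change 0.60, adjusted p = 0.470 from edgeR). Ddit4 and Eif4ebp1, which restrain mTORC1 signalling and translation, had log2 fold changes of 0.29 and 0.042 (adjusted p = 0.659 and 0.834 from edgeR).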

How the data were processed

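Liver RNA (TRIzol and RNeasy, TruSeq Stranded mRNA, single-end reads of 100 bases) was aligned by the authors with STAR 2.4.1d to GRCm38 and counted with HTSeq 0.6.1, and the deposited values are raw counts per gene for 43629 genes in 10 livers. The annotation release and the strand setting are not given in the sources used here. Gene positions come from GENCODE release M21, which lacks 1081 of the genes (70 of those tested), and overlaps were checked for the members only. Genes were filtered with filterByExpr, scaled by TMM and tested with edgeR 4.0.16 (quasi-likelihood, R 4.3.3) on both groups of 5 mice, without covariates, at an adjusted p-value of 0.05. RPKM used the summed exon length. Library depths are given with the samples, and no 2 libraries of a group agreed within counting noise (chi-square per degree of freedom at least 50.1). DESeq2 1.42.0, limma-voom (limma 3.58.1), other scalings and filters, and leaving out each mouse were the alternatives. On simulated counts, edgeR recovered 196 of 200 genes changed 4-fold among 13939 genes, with 10 false calls among 206. DESeq2 recovered 197, with 34 false calls among 231, and limma-voom 190, with 10 among 200. Calls by DESeq2 alone are to be read with that larger number of false calls. The changed genes were drawn without the lowest-level genes, and no member's fold change reached 4-fold. The recovery therefore does not measure the power for differences of the members' size.

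The members and gene lists were chosen with earlier results of these data known, and some items are not reported here. Named genes are the members, the 4 eIF2 kinases, 12 well-known pathway genes, list genes past the threshold, and the genes most alike each member. Hspd1, Hspa9 and the genes marked as named after their values were seen fall outside this rule. The labels give no batch, so none could be examined, and each liver is 1 mouse.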

Additional observations from a re-analysis of the deposited data

Results flagged for a closer look

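In 6 of 82 gene and group combinations examined for 41 genes, 1 liver stood apart from the other 4 of its group, its gap to the nearest liver taking more than 0.71 of the group's range (Dixon's 95% critical value for 5 samples). Chance gives about 1 in 20, and 2 of the 6 were members, among 20 member groups. The 41 genes included some named after their values were seen, Herpud1 among them. All 6 were CACS livers, from 4 mice. For Trib3, mouse 17 had 10.5 CPM beside 1.69 to 3.95 CPM in the others (gap 0.743 of the range). For Asns, mouse 16 had 4.05 CPM beside 0.522 to 1.38 CPM (0.757). For Eif2ak3, mouse 20 had 21.9 CPM beside 16.5 to 17.8 CPM (0.759). For Fgf21, mouse 18 had 12.4 CPM beside 0.115 to 2.12 CPM (0.837). For Bbc3, mouse 16 had 2.15 CPM beside 0.761 to 0.997 CPM (0.830). For Herpud1, mouse 18 was low, with 395 CPM beside 550.1 to 586 CPM (0.811).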

How the results depend on the processing

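The 8 settings that kept all mice called 0 members, and leaving out each mouse called 0 to 1, the 1 being Trib3 without CACS mouse 17. The members' median log2 fold change was 0.17 in edgeR and 0.11 to 0.24 when a mouse was left out. Over all genes, 538 were called, 178 to 519 without a mouse and 1376 with DESeq2. Calls in the wider lists were 6 of 161, 2 to 9 without a mouse and 24 of the 166 genes fitted with DESeq2. Asns, at 0.69, changed sign without CACS mouse 16 (-0.10 to 1.16 over the mice left out). The other log2 fold changes that changed sign when a mouse was left out were Eif2ak1 (-0.030 to 0.055), Eif2ak4 (-0.061 to 0.062), Mthfd2 (-0.46 to 0.15), Psph (-0.099 to 0.0078), Hspa5 (-0.11 to 0.063), Hspd1 (-0.056 to 0.10) and Eif4ebp1 (-0.0096 to 0.080). Eif2ak4 was also 0.0058 with raw totals, and Mthfd2 0.035 with limma-voom. The cause was not tested. The requirement of 10 counts in every liver left Asns and Phgdh untested, and these genes and Psat1 had few counts. No paired analysis was possible because no mouse number occurs in both groups.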

Other observations

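The list of chaperones and sensors of the endoplasmic reticulum held no calls among 18 genes in edgeR or limma-voom. In edgeR 7 unadjusted p-values were under 0.05 (21.6% over all genes). DESeq2 made 2 calls (Herpud1 higher, Pdia4 lower), against 8.87% over all genes. The log2 fold change was negative for 14 of 18, against 7161 of 14143 tested genes, with a median of -0.13 beside -0.0053 over all tested genes. Hspa5, the main chaperone of this compartment, had 644 ± 105 CPM in NCACS livers against 629 ± 117 CPM under CACS (SD, n = 5 each). Herpud1, a component of the machinery that removes misfolded proteins, had 320 ± 103 CPM in NCACS livers against 533 ± 77.9 CPM under CACS (log2 fold change 0.74, adjusted p = 0.0880 from edgeR). Pdia4, a disulfide isomerase, had 249 ± 71.7 and 170 ± 19.1 CPM (-0.55, adjusted p = 0.101 from edgeR). Herpud1 and Pdia4 were named after their values were seen.

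Of 14 genes of the mitochondrial stress response, 0 were called by edgeR or limma-voom, with 2 unadjusted p-values under 0.05 in edgeR (21.6% over all genes). DESeq2 called 1, Oma1 (lower), against 8.87% over all genes. Oma1, the protease that relays mitochondrial stress to the kinase HRI through DELE1, had 17.6 ± 0.659 CPM in NCACS livers against 14.1 ± 1.29 CPM under CACS, without overlap of the groups (SD, n = 5 each; log2 fold change -0.32, adjusted p = 0.0598 from edgeR), and was named after its values were seen. The chaperones Hspd1 and Hspa9 had log2 fold changes of 0.034 and 0.21, with adjusted p-values of 0.923 and 0.481 from edgeR.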
